A study of Mus musculus with 6 samples.

Results

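The oligoadenylate synthetase (OAS) family was followed in bulk RNA-seq of cultured mouse fibroadipogenic progenitors (FAPs), the mesenchymal progenitor cells of skeletal muscle. The 8 genes described, Oas1a, Oas1b, Oas1c, Oas1g, Oas2, Oas3, Oasl1 and Oasl2, were taken by symbol from the 16895 genes with expression values, and all 8 had values. They were chosen with their response to senescence in these libraries already known, so their differences between the groups are given as a description, with no test. Genes of related pathways and of the neighbouring chromosome were tested with all other genes. The pathway lists too were chosen with earlier results of these data known, so their counts are a description. The study compared 3 libraries of control FAPs with 3 libraries of senescent FAPs. In both groups the cells were C57BL/6 primary FAPs from the hindlimb muscles of 3- to 6-month-old male and female mice, selected by magnetic sorting as CD45-/CD31-/α7-integrin-/SCA-1+ and grown in serum with bFGF. Senescent FAPs had received 20 μM etoposide, a topoisomerase II poison that breaks DNA, for 48 h and then 5 days of normal medium. The sources used here do not say whether control FAPs received a vehicle, nor whether the 3 libraries of a group came from separate animals or cultures, so a p-value measures the spread between these libraries, which may be technical.

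OAS proteins are sensors of double-stranded RNA, the form of RNA that viruses make and that cells normally keep scarce. Once bound to it, the catalytically active members join ATP into short chains with an unusual 2′-5′ linkage, the 2-5A oligomers, which act as a messenger of viral infection inside the cell. The genes are classical interferon-stimulated genes, switched on through an interferon-stimulated response element (ISRE) near the start of transcription. Mice carry many tandem copies of the Oas1 gene where humans have a single one.

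Values are CPM, the reads of a gene relative to the size of its library, scaled between libraries, as deposited. The libraries held between 41415072 and 59915575 reads over the listed genes, and 1 read was worth 0.0167 to 0.0225 CPM, so a value of 0.1 CPM rests on a handful of reads. All 10 FAP markers checked were present, with a summed level of 17933 to 36845 CPM in control and 11502 to 16375 CPM in senescent libraries. The sum was led by the collagen genes Col1a1, at 9978 to 21130 CPM in control and 2353 to 4073 CPM in senescent libraries, and Col3a1. Like Col1a1, Pdgfrb was lower in all senescent than in all control libraries, at 943 to 1070 and 846 to 876 CPM. By contrast, Ly6a (the gene of SCA-1), Cd34, Dcn, Lum and Gsn were each higher in all senescent than in all control libraries. Pdgfra, Col3a1 and Thy1 overlapped between the groups. Of 12 leukocyte markers, 6 had values, and their sum was 11.2 to 14.1 CPM in control and 26.4 to 32.9 CPM in senescent libraries. Of these, 4 had senescent libraries entirely above control libraries. They were Cd53, at 0.960 to 3.92 and 8.36 to 13.7 CPM, Cd68, at 1.15 to 1.84 and 4.13 to 5.79 CPM, Lyz2, at 1.45 to 2.01 and 5.28 to 6.59 CPM, and Itgam, at 0 to 0.0670 and 0.516 to 0.837 CPM. Ptprc, the gene of the CD45 antigen used in the sort, was among the leukocyte markers without values. The leukocyte sum moved with the OAS genes, and its part in their values was not tested. Summed endothelial markers (4 of 7 with values) ran from 18.0 to 38.4 CPM in control and 22.2 to 29.2 CPM in senescent libraries, and summed myogenic markers (3 of 9) from 35.1 to 54.0 and 35.3 to 38.2 CPM. The sums overlapped between the groups, but single markers did not: Pecam1 and Itga7 were higher, and Kdr and Acta1 lower, in all senescent than in all control libraries. In bulk RNA, a larger share of expressing cells and more RNA per expressing cell cannot be told apart.

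All 8 genes lie on chromosome 5, in 2 places (GRCm38, GENCODE M21). Oasl2 (114896936 to 114912234) and Oasl1 (114923240 to 114937915) are neighbours on the plus strand, within 41.0 kb. The other genes lie 5.79 Mb further along, in a cluster of 191 kb that holds 10 Oas genes. Its members measured here were Oas2 (120730333 to 120749853, minus strand), Oas3 (120753098 to 120777661, minus), Oas1c (120800194 to 120812514, minus), Oas1b (120812635 to 120824163, plus), Oas1g (120876142 to 120887613, minus) and Oas1a (120896256 to 120907521, minus). Oas1d, Oas1e, Oas1f and Oas1h of the same cluster had no expression values, as no other symbol that starts with Oas was listed. Oas1b and Oas1c stand head to head, with their annotated starts 121 bases apart.

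Promoter sequences were read from RefSeq windows of GRCm38.p6 that run from 250 bases before to 50 bases after each annotated start. Such a window was found for 6 of the 8 genes; Oas2 and Oas1b had no entry of their own. The windows were searched on both strands for the ISRE core, GAAA followed by any 2 bases and a second GAAA, and overlapping matches were kept. The core was present in 4 of the 6 windows, those of Oas1a, Oas1g, Oas1c and Oas3, against 3.44% of all 32851 windows. The 3 Oas1 windows held the same run of 16 bases, so the 4 windows are not independent cases. The 3 Oas1 stretches and that of Oas3 are shown because they carry the core, and that of Oasl2, the most abundant of the genes, because its window holds no match. Each is written 5′ to 3′ with matches in capitals. The Oas1b line is the stretch between the starts of Oas1c and Oas1b, taken from the Oas1c window and read in the direction of Oas1b.
Oas1a (chr5:120907526-120907675, minus strand): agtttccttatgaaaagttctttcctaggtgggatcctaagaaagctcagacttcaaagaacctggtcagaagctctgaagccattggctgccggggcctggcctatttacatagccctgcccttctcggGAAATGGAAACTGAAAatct
Oas1g (chr5:120887614-120887763, minus strand): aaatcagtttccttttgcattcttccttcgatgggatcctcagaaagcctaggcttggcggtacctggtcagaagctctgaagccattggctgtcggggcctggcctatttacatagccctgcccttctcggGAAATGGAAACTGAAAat
Oas1b, shared with Oas1c (chr5:120812515-120812634, plus strand): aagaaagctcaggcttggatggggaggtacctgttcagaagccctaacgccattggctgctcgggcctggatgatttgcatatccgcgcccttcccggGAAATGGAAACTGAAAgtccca
Oas3 (chr5:120777660-120777809, minus strand): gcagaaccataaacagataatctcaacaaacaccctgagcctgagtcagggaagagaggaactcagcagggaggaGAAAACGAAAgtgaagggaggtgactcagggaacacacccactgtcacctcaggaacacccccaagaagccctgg
Oasl2 (chr5:114896784-114896933, plus strand): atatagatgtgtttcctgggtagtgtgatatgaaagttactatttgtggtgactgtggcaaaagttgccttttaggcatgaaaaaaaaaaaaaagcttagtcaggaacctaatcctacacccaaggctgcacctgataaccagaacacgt

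In Oas1a and Oas1g, 2 overlapping copies of the core form the same run of 16 bases, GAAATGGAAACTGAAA, which begins 20 bases before the annotated start in Oas1a and 18 bases before it in Oas1g. The identical run stands in the interval shared by Oas1b and Oas1c, on the strand of Oas1b, from 22 to 7 bases before its start. Measured from Oas1c it is on the opposite strand and begins 114 bases before the start. Only 7 of the 32851 windows held this run in either direction, and they belonged to Oas1a, Oas1c, Oas1g, Apol9a and Apol9b. Oas3 held a single core, GAAAACGAAA, beginning 75 bases before its start. With a longer form that ends in a further C the count fell to 3 of 6 windows, without Oas3, against 0.819% of all windows. Neither the Oasl1 nor the Oasl2 window held these letters, which says nothing of elements outside the windows. A match is a description of the sequence and not of binding.

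Senescent FAPs had higher values than control FAPs for each of the 8 genes, and in each the lowest senescent library lay above the highest control library. Of all listed genes, 28.0% had senescent libraries entirely above control libraries in this way; since the genes were chosen on this contrast, nothing is read from their count. Summed over the family, the level was 4.53, 4.94 and 3.88 CPM in control libraries 1 to 3 and 52.9, 59.0 and 63.5 CPM in senescent libraries 1 to 3. The group means were 4.45 ± 0.538 and 58.5 ± 5.36 CPM (SD, n = 3 each), a ratio of 13.1. Without Oasl2 the sum of the other genes was 1.87 ± 0.532 and 21.4 ± 1.01 CPM (SD, n = 3 each), a ratio of 11.4.

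**Figure D1:**
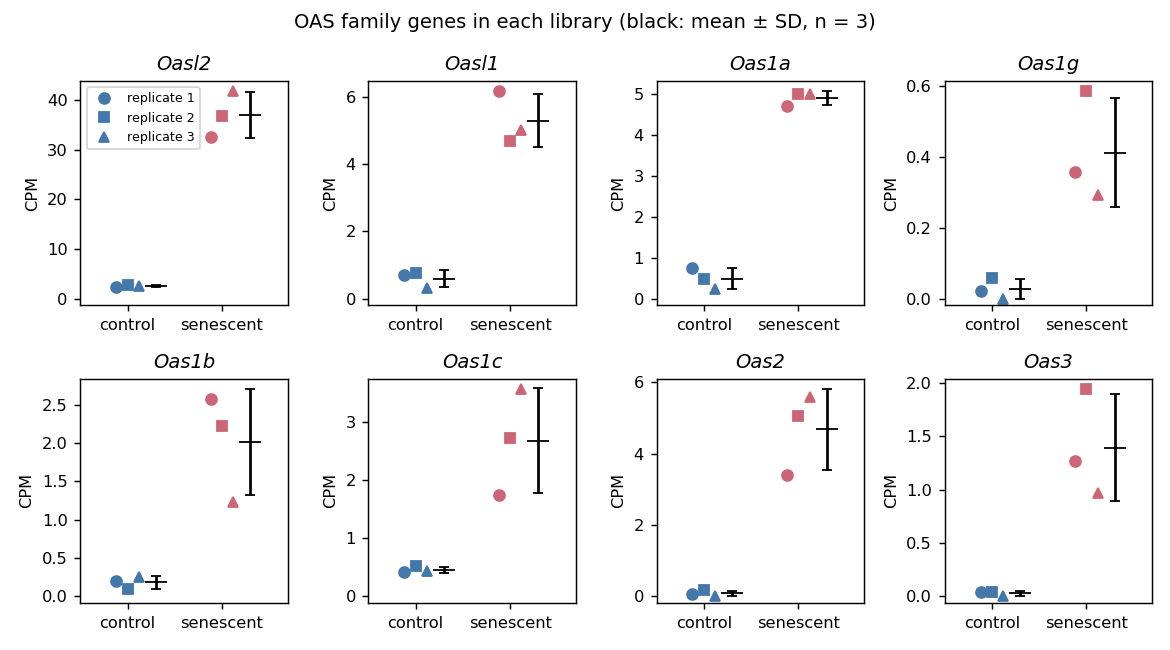
CPM of each OAS gene on linear axes, one panel a gene, with a point for each control (blue) and senescent (red) library, its replicate number given by the marker, and in black the group mean ± SD (n = 3). In each gene the 3 senescent libraries lie above the 3 control libraries, and Oasl2 reaches the highest level, 41.9 CPM.

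Among the OAS-like genes, whose proteins carry ubiquitin-like domains behind the OAS fold, Oasl2 had the highest level. Its product keeps synthetase activity. Oasl2 stood at 2.30, 2.83 and 2.62 CPM in control libraries 1 to 3 and at 32.6, 36.8 and 41.9 CPM in senescent libraries 1 to 3. The lowest senescent library was therefore 11.5 times the highest control library. The means were 2.58 ± 0.269 and 37.1 ± 4.64 CPM (SD, n = 3 each), a ratio of 14.4, and with 103 to 149 reads in control libraries the pooled read ratio was 14.2, with a 95% counting interval of 12.8 to 15.8. Oasl2 was the only member at or above 0.5 CPM in all 3 control libraries. It also had the most control reads, 398 over the 3 libraries, against 90 or fewer for each other member. Its relative Oasl1, which lacks synthetase activity and is known to hold back translation of Irf7 mRNA, stood at 0.714, 0.761 and 0.323 CPM in control and at 6.18, 4.68 and 5.02 CPM in senescent libraries. The lower control value belonged to replicate 3, and the ratio of the means was 8.83, with a pooled read ratio of 8.96 (95% counting interval 7.20 to 11.3). Oasl1 overlaps the annotated gene Gm13822.

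The Oas1 genes encode the small, single-unit synthetases. Oas1a, a catalytically active enzyme, was at 0.759, 0.475 and 0.233 CPM in control and at 4.69, 4.99 and 5.00 CPM in senescent libraries. Its 3 senescent libraries were the closest together of any member, with a coefficient of variation of 3.60%, against 12.5% to 37.4% for the others, while its control libraries spread more than 3 times from lowest to highest. The ratio of its means was 9.99, with a pooled read ratio of 10.4 (95% counting interval 8.16 to 13.4). Oas1g was at 0.0223, 0.0570 and 0 CPM in control libraries, which is 1, 3 and 0 reads, and at 0.357, 0.586 and 0.293 CPM in senescent libraries, which is 18, 35 and 13 reads. Its pooled read ratio of 16.3 had a counting interval of 6.09 to 61.8, and it was the member that did not reach 0.5 CPM in 3 libraries and so had no fitted fold change.

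Values of Oas1a and Oas1g are uncertain beyond counting error, because the transcripts are near copies of each other. Of all stretches of 50 bases in the annotated transcript of Oas1a, 56.9% also occur in Oas1g, and 54.7% of those of Oas1g occur in another Oas gene. With stretches of 100 bases the shares were 40.2% and 38.2%. How reads that match several genes were assigned is not given in the sources used here. The share of Oas1g in the reads given to either gene was 2.86%, 10.7% and 0% in control and 7.09%, 10.5% and 5.53% in senescent libraries, and for the control library at 0 of 13 reads the exact Clopper-Pearson 95% interval reached 24.7%. The intervals of the control and senescent libraries overlapped throughout. In Oas1c, 10.04% of 50-base stretches occurred in another Oas gene, mostly Oas1e, in Oas1b 1.35%, and in Oas2, Oas3, Oasl1 and Oasl2 none.

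Oas1b is the flavivirus resistance gene of wild mice; laboratory strains such as C57BL/6 carry a form with a premature stop, and the annotation accordingly lists it as a polymorphic pseudogene, with 753 coding bases where Oas1a has 1101. Its RNA was at 0.201, 0.0951 and 0.251 CPM in control libraries and at 2.58, 2.23 and 1.24 CPM in senescent libraries. Oas1c, which starts 121 bases away on the other strand, was at 0.424, 0.513 and 0.431 CPM in control and at 1.75, 2.71 and 3.56 CPM in senescent libraries. The ratio of the means was 11.0 for Oas1b (pooled read ratio 11.2, 95% counting interval 7.63 to 17.2) and 5.86 for Oas1c (5.77, 4.47 to 7.55), the lowest of the family. Both were above control in every senescent library, but in opposite order among them, with Oas1b highest in replicate 1 and lowest in replicate 3 and Oas1c the reverse. Oas1b accordingly took 59.6% of the reads of the pair in senescent replicate 1 (130 of 218, Clopper-Pearson 95% interval 52.8 to 66.2), 45.1% in replicate 2 (133 of 295, 39.3 to 51.0) and 25.8% in replicate 3 (55 of 213, 20.1 to 32.2). These intervals, which cover counting error only, do not overlap. In control libraries the shares were 32.1%, 15.6% and 36.8%, from 28 to 38 reads, with overlapping intervals. Oas1c overlaps the annotated gene Gm43069.

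Oas2 and Oas3 encode the larger synthetases, which carry several OAS units in a row, and they were the members nearest to 0 in control FAPs besides Oas1g. Oas2 was at 0.0670, 0.171 and 0.0180 CPM in control libraries, from 3, 9 and 1 reads, and at 3.42, 5.05 and 5.58 CPM in senescent libraries, from 172, 302 and 248 reads. Oas3 was at 0.0446, 0.0380 and 0 CPM in control, from 2, 2 and 0 reads, and at 1.27, 1.94 and 0.968 CPM in senescent libraries, from 64, 116 and 43 reads. The lowest senescent library was 20.0 times the highest control library for Oas2 and 21.7 times for Oas3. The pooled read ratios were 55.0 for Oas2 (95% counting interval 32.0 to 104) and 55.2 for Oas3 (21.3 to 204), wide because of the few control reads. Oas2 overlaps the annotated gene Gm43068, and as the strand setting of the counting is not given, reads of Oas2, Oas1c and Oasl1 cannot be told apart from those of their overlapping partners.

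Which of the 7 fitted genes changed most depended on the scale. On log2(CPM + 0.5), the scale on which all genes were fitted, the difference between senescent and control FAPs was 3.60 ± 0.14 (SE) for Oasl2, 3.13 ± 0.21 for Oas2, 2.48 ± 0.21 for Oas1a, 2.41 ± 0.21 for Oasl1, 1.85 ± 0.24 for Oas1b, 1.81 ± 0.21 for Oas3 and 1.69 ± 0.23 for Oas1c. The median of these 7 genes was 2.41, beside -0.03 over all 14777 genes tested. Nothing is read from this gap, since the genes were chosen on this contrast and 6 of the 7 reached 0.5 CPM in 3 libraries only with the senescent libraries. The added 0.5 CPM exceeds the control level of all of these genes except Oasl2 and, on average, Oasl1, and it lowers their fold changes. Without it, as the log2 ratio of mean CPM, Oas2 (5.78) and Oas3 (5.66) came before Oasl2 (3.84), and edgeR on the recovered reads gave the same order at the top, with 5.77, 5.63 and 3.87. Oas1g, which was not fitted, had a log2 ratio of mean CPM of 3.96, but on 4 control reads in all. Oas1c was lowest on all of these scales. Dividing by library totals alone, without the deposited scaling, moved the median of all genes to 0.17, a shift small beside the members' values.

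**Figure D2:**
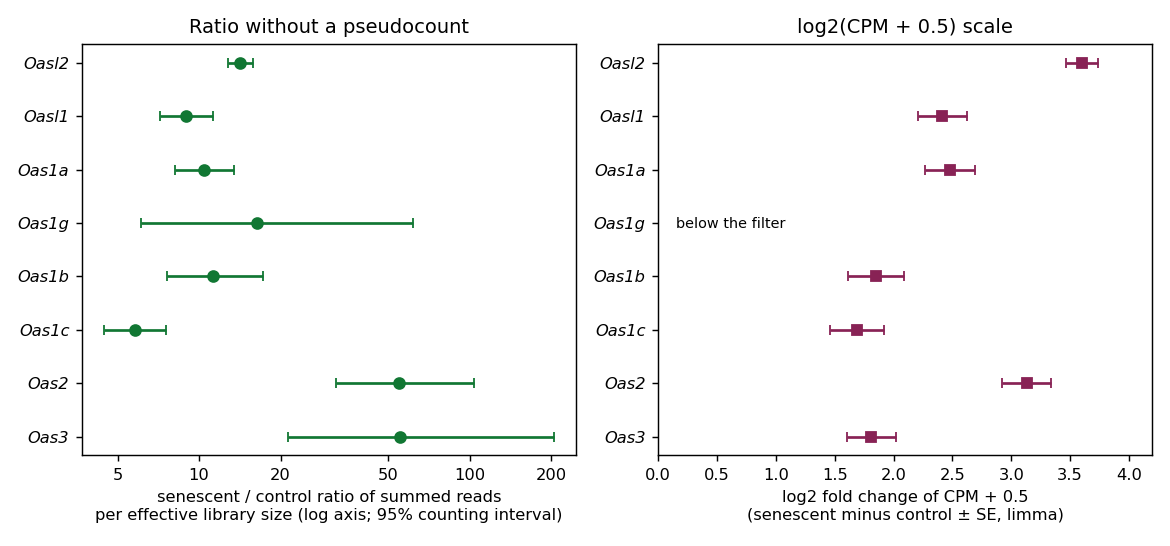
Difference between senescent and control FAPs for each OAS gene, on the left as the ratio of summed reads per effective library size on a log axis with its 95% counting interval, and on the right as the log2 fold change of CPM + 0.5 with its SE from limma. Oas2 and Oas3 have the largest ratios on the left, 55.0 and 55.2, whereas Oasl2 has the largest value on the right, 3.60, and Oas3 is among the lower ones, at 1.81.

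To compare levels between genes, CPM was divided by the length of the longest protein-coding transcript in kb. On this scale Oasl2 was first in control FAPs, at 0.736 to 0.907 CPM per kb, and its range was apart from that of the next gene. Oasl1, Oas1a and Oas1c followed with ranges that overlapped from each to the next, Oas1b was below Oas1c in all libraries, and Oas2, Oas1g and Oas3 came last with overlapping ranges, none above 0.0432 CPM per kb. In senescent FAPs Oasl2 was again first, at 10.4 to 13.4 CPM per kb. Oas1a and Oasl1 came next and overlapped, at 2.15 to 2.83 CPM per kb in all. Oas2, Oas1c and Oas1b formed the next group, at 0.676 to 1.55 CPM per kb with overlapping ranges, apart from Oasl1 above and from Oas3 below, and Oas3 and Oas1g came last.

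The make-up of the family, as each gene's share of the summed CPM per kb, shifted for a few members. Oas2 took 0.940%, 2.32% and 0.315% in control libraries and 4.48%, 6.08% and 6.30% in senescent libraries, and Oas3 went from a mean of 0.319% to 1.43%. In the opposite direction Oas1c took 10.3%, 12.02% and 13.1% in control and 3.96%, 5.64% and 6.94% in senescent libraries. The groups did not overlap for these 3 genes. Oasl2 held the largest share in both groups, 49.3% ± 8.67 in control and 56.8% ± 2.91 in senescent FAPs (SD, n = 3 each), with overlapping libraries, and it made up 63.9% of the difference in summed CPM between the groups. With coding length in place of transcript length its senescent share was 60.4%.

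**Figure D3:**
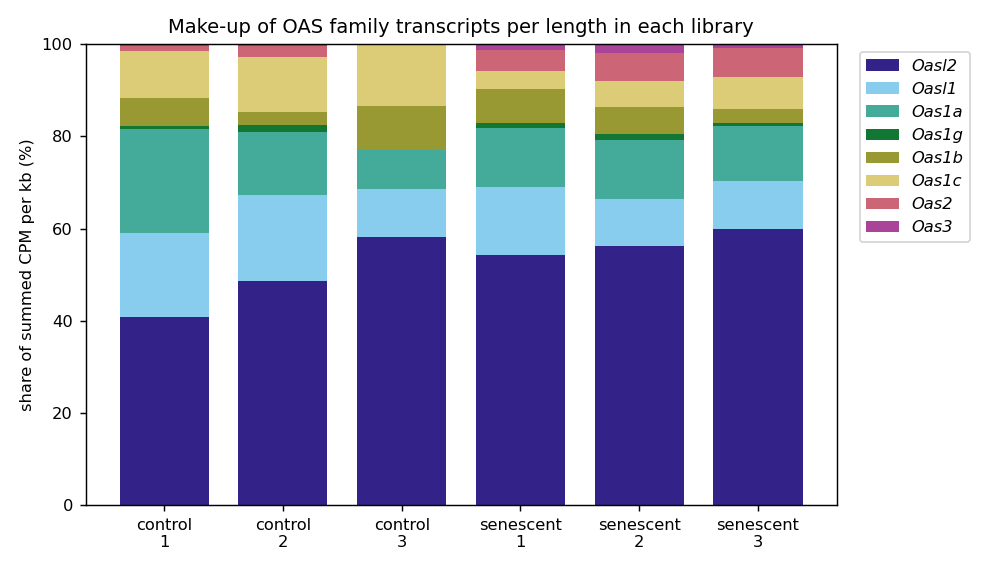
Share of each OAS gene in the summed CPM per kb of the family, in percent, for every control and senescent library. Oasl2 takes the largest part of each bar, from 40.9% to 60.0%, and the part of Oas2 is larger, and that of Oas1c smaller, in the 3 senescent libraries.

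Genes of related pathways were tested on log2(CPM + 0.5) with limma over all 14777 genes, of which 21.8% were called higher and 24.3% lower. Of 4 genes listed for the turnover of 2-5A and for ribosome recycling, none rose, 1 fell and 3 were not called. Abce1, which recycles ribosomes, fell from 194 ± 14.2 to 136 ± 9.37 CPM (SD, n = 3 each), a log2 fold change of -0.51 ± 0.09 (SE), with all 3 senescent libraries below all control libraries (limma, Benjamini-Hochberg adjusted p = 0.00273). Among the enzymes that cut 2-5A or related nucleotides, Pde12 was at 24.3 and 21.1 CPM (log2 fold change -0.20, adjusted p = 0.199), Akap7 at 6.72 and 8.78 CPM (0.36, adjusted p = 0.0585) and Enpp1 at 59.7 and 73.1 CPM (0.32, adjusted p = 0.214) in control and senescent FAPs, none of which passed limma's test after Benjamini-Hochberg adjustment. Akap7 did pass under 4 of 15 alternatives (adjusted p 0.0117 to 0.178 over all of them), and Enpp1 without control replicate 2, with a log2 fold change of 0.55 and an adjusted p of 0.00619 (0.00619 to 0.489 over all alternatives).

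Mb21d1, which encodes cGAS, a DNA sensor with the same nucleotidyltransferase fold as the OAS enzymes, fell from 4.36 ± 0.459 to 2.24 ± 0.548 CPM (SD, n = 3 each). Its log2 fold change was -0.84 ± 0.19 (SE; limma, Benjamini-Hochberg adjusted p = 0.00921), with no overlap of the groups. Tmem173, which encodes STING, the receptor of the cyclic dinucleotide made by cGAS, fell from 51.8 ± 9.44 to 32.0 ± 2.40 CPM, by 0.67 ± 0.13 on the log2 scale (limma, Benjamini-Hochberg adjusted p = 0.00517), again with all senescent libraries below all control libraries. Mb21d2, a less studied relative, was at 13.9 and 14.6 CPM and was not called (log2 fold change 0.07, limma adjusted p = 0.662). Of these 3 genes 2 fell and none rose, where 24.3% of all genes tested fell and 21.8% rose. Nothing is read from the count of so few genes.

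Of 10 genes of double-stranded RNA sensing, 9 rose and none fell, against 21.8% and 24.3% of all genes tested. The list was chosen with earlier results of these data known, so nothing is read from this gap. The largest changes were in Zbp1, a sensor of Z-form nucleic acid, which went from 1.53 ± 0.286 to 20.9 ± 2.34 CPM, in Ifih1, which encodes the double-stranded RNA sensor MDA5, from 3.30 ± 0.357 to 18.1 ± 3.12 CPM, and in Dhx58, which encodes LGP2, from 2.26 ± 0.110 to 11.3 ± 1.58 CPM (SD, n = 3 each). Their log2 fold changes were 3.40 ± 0.16, 2.28 ± 0.16 and 2.09 ± 0.15 (SE; limma, Benjamini-Hochberg adjusted p = 4.61e-05, 1.47e-04 and 1.43e-04), with 3 of 3 senescent libraries above control in each. Mavs, the adaptor that MDA5 signals through, was the gene not called, at 34.8 and 40.2 CPM (log2 fold change 0.20, limma adjusted p = 0.0602), but it was called higher under 5 of 15 alternatives (adjusted p 0.00439 to 0.196 over all of them).

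Of 10 genes of interferon signalling towards OAS promoters, 2 rose, 1 fell and 7 were not called. Among all genes tested 21.8% rose and 24.3% fell, and nothing is read from the counts of this short list. Usp18, which restrains the type I interferon receptor, went from 1.28 ± 0.596 to 19.6 ± 2.31 CPM, and Irf7, a transcription factor of interferon genes and the mRNA that Oasl1 is known to act on, from 2.46 ± 0.965 to 27.6 ± 5.86 CPM (SD, n = 3 each). The log2 fold changes were 3.54 ± 0.25 and 3.28 ± 0.25 (SE; limma, Benjamini-Hochberg adjusted p = 1.43e-04 and 1.98e-04). The gene that fell was Ifnar1, a chain of the type I interferon receptor, from 109 ± 8.33 to 85.1 ± 2.42 CPM (log2 fold change -0.36 ± 0.08, limma, Benjamini-Hochberg adjusted p = 0.00812), and this call was lost when the libraries were scaled by their totals alone (adjusted p = 0.142; over all alternatives 0.00223 to 0.142). Of the interferon ligand genes themselves, 11 were looked up by symbol. None was among the genes tested, so they are in none of these counts. Over the 4 lists, 11 of 27 genes rose and 4 fell, and with the replicate number as a block 12 rose and 5 fell. The study's own threshold, an unadjusted p under 0.01 with a log2 fold change beyond 1, was applied to the limma fit. At this cut 9 rose and 0 fell, against 6.93% and 3.9% of all genes. Mavs and Ifnar1 were picked for naming after their values were seen.

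**Figure D4:**
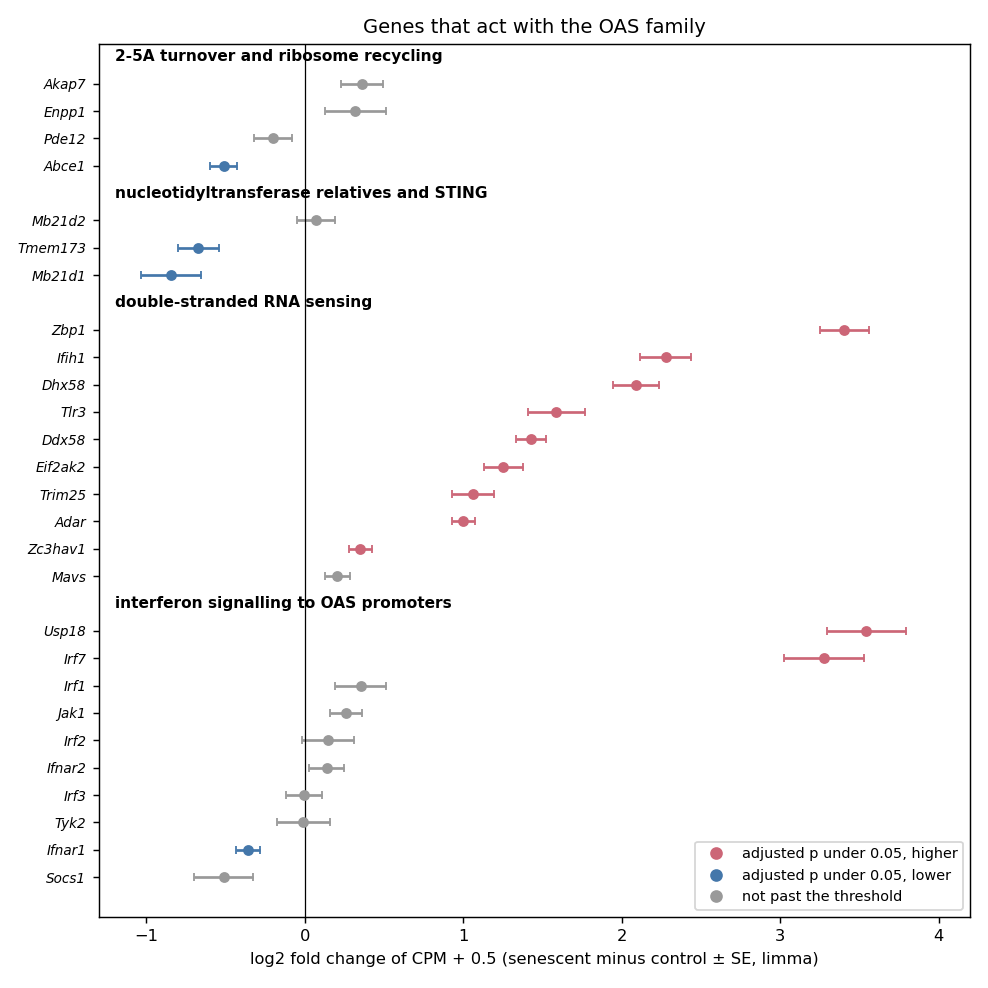
Log2 fold change with its SE on log2(CPM + 0.5), senescent minus control FAPs, for the genes of the 4 tested pathway lists, in red (higher) or blue (lower) where limma's Benjamini-Hochberg adjusted p was under 0.05 and in grey otherwise. All genes of double-stranded RNA sensing lie to the right of 0, led by Zbp1 at 3.40, Usp18 lies farthest to the right at 3.54, and Mb21d1 farthest to the left at -0.84.

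The genes next to the OAS loci were examined on both sides of each locus. Of the 10 nearest tested genes around the Oasl1-Oasl2 pair, 5 on each side, none rose, 1 fell and 9 were not called, where 21.8% of all genes tested rose and 24.3% fell. 2210016L21Rik, only 4.24 kb from the pair, was at 18.3 ± 0.407 and 18.4 ± 1.33 CPM (SD, n = 3 each; log2 fold change 0.00 ± 0.10, limma adjusted p = 0.979), beside 2.41 ± 0.21 for Oasl1 on the same scale. The gene that fell, Rpl37rt, is a retrocopy of a ribosomal protein gene whose reads may belong to its parent (log2 fold change -0.57 ± 0.15, limma, Benjamini-Hochberg adjusted p = 0.0188), and its call was lost under 4 of 15 alternatives (adjusted p 0.00172 to 0.0764).

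Around the Oas1-Oas2-Oas3 cluster, 3 of the 10 nearest tested genes rose, 2 fell and 5 were not called, shares near those of all genes tested (21.8% and 24.3%), and nothing particular to the locus is read from them. The largest change was in Slc8b1, the mitochondrial sodium-calcium exchanger 196 kb from the cluster, which went from 2.07 ± 0.239 to 7.54 ± 1.18 CPM (SD, n = 3 each), a log2 fold change of 1.64 ± 0.16 (SE; limma, Benjamini-Hochberg adjusted p = 3.69e-04). That is close to the value of Oas1c, 1.69 ± 0.23 on the same scale. With edgeR on the recovered reads the 2 were further apart, at 1.89 for Slc8b1 and 2.57 for Oas1c. Trafd1, a regulator of innate immune signalling 450 kb away, rose by 0.64 ± 0.11 and Tpcn1, an endolysosomal ion channel, by 0.60 ± 0.14 on the log2 scale (limma, Benjamini-Hochberg adjusted p = 0.00291 and 0.0112). The call of Tpcn1 was lost without senescent replicate 2 (adjusted p = 0.0521; over all alternatives 2.06e-04 to 0.0521). The helicase gene Ddx54, the nearest tested gene on its side at 102 kb, fell by 0.59 ± 0.11 and the ribosomal protein gene Rpl6 fell by 0.51 ± 0.09 on the log2 scale (limma, Benjamini-Hochberg adjusted p = 0.00433 and 0.00356). Rph3a, 18.8 kb from Oas1a's end of the cluster, was at 1.05 ± 0.636 and 1.90 ± 0.148 CPM and was not called (log2 fold change 0.74 ± 0.33, limma adjusted p = 0.0996), but it was with the replicate number as a block (adjusted p = 0.0419; over all alternatives 0.0322 to 0.210). Its log2 fold change was 0.33 without control replicate 3 and 0.98 without control replicate 2. The median log2 fold change over the 20 neighbours was 0.04.

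**Figure D5:**
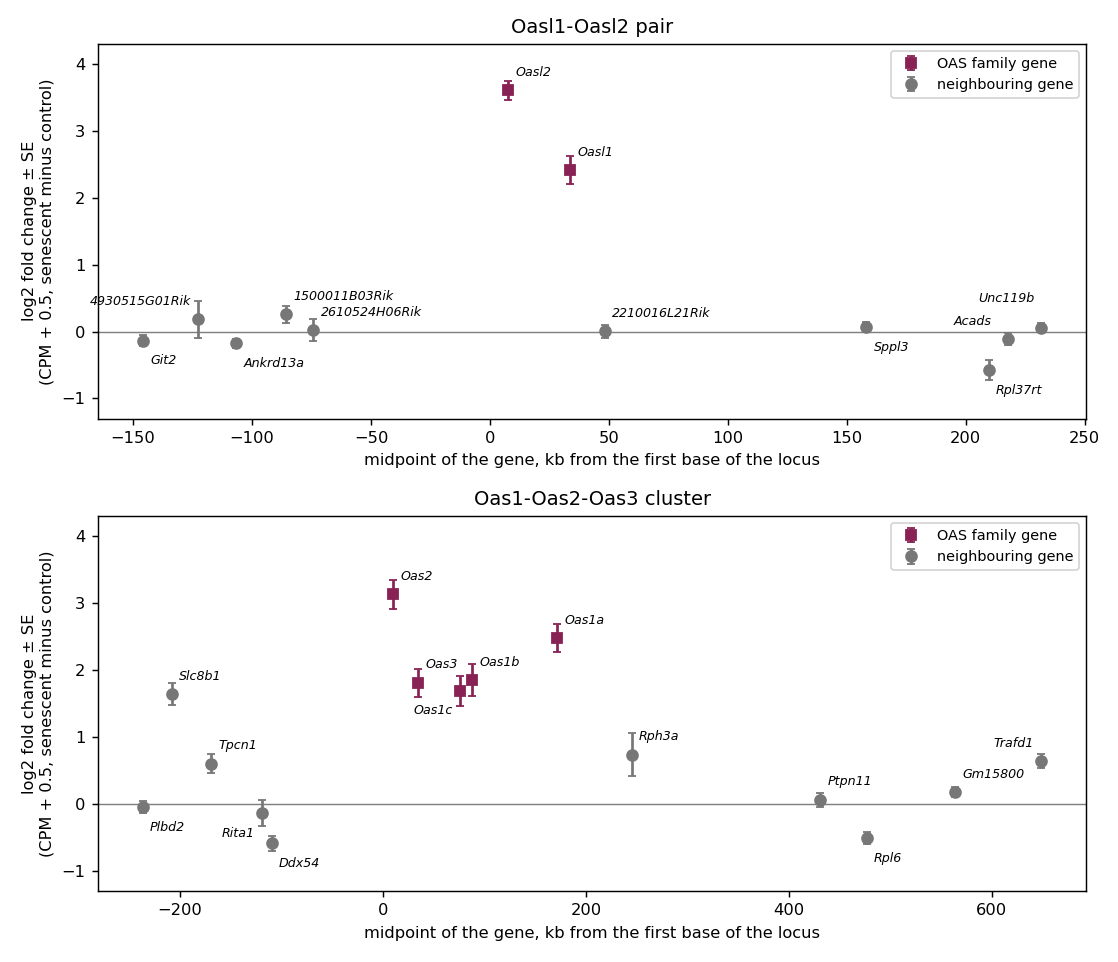
Log2 fold change with its SE on log2(CPM + 0.5), senescent minus control FAPs, against the distance of each gene's midpoint in kb from the start of its locus, for the OAS genes (squares) and the 5 nearest tested genes on each side (circles). The OAS genes lie between 1.69 and 3.60, and among the neighbours only Slc8b1, at 1.64, comes near them on this scale.

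Genes whose pattern over the 6 libraries was most like the family's were named by their Pearson correlation with the mean scaled profile of the members. The first 5 were E230015B07Rik, Adar, D430042O09Rik, Gm21738 and Ces2e, with r between 0.9985 and 0.9989. Adar, the enzyme that edits adenosines in double-stranded RNA, was at 28.1, 29.0 and 27.2 CPM in control and at 56.7, 58.9 and 54.6 CPM in senescent libraries. Of 14770 genes compared, 138 had an r over 0.99, so that many genes share a pattern set by the difference between the groups. The correlation is a description over 6 libraries in 2 groups.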

How the data were processed

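RNA was measured by bulk RNA-seq with a stranded mRNA kit in 3 control and 3 senescent FAP libraries, grouped and numbered from their labels. The authors deposited CPM made with edgeR (edgeR 3.10 and R 3.6.0 and build mm10 stand in the submitters' notes; the aligner, the counter, its strand setting and its treatment of multiply matching reads are not given in the sources used here). The deposited columns, handled as a normalized signal because their sums differ between libraries, are CPM over TMM-scaled library sizes; all 100% of values were whole multiples of 1 read (within 0.01 read), and so reads were recovered. Replicates differed beyond counting noise.

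CPM values were tested as log2(CPM + 0.5) with limma 3.58.1 (R 4.3.3, variance trend, two-sided, Benjamini-Hochberg adjusted p under 0.05) over 14777 of 16895 genes, those that reached 0.5 CPM in 3 or more libraries. The script was tested on simulated data. Alternatives were pseudocounts of 0.1 and 1, no filter or 2 CPM, other scalings, leaving out each library, a replicate block, edgeR 4.0.16 and DESeq2 1.42.0 on recovered reads, and the study's threshold (unadjusted p under 0.01, log2 fold change beyond 1). That threshold was applied to the main limma fit, whereas the study used edgeR. Deviations from the group means correlated most between same-numbered libraries of the 2 groups (0.54, 0.31 and 0.21, others at most 0.15). The labels do not say what a number stands for, and whether the libraries are paired was not tested. The main fit was unpaired, and p-values are from it unless a replicate block or another alternative is named.

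Pooled read ratios carry exact binomial intervals for counting error only. Gene positions and lengths came from GENCODE M21. Genes named were all members, the 2-5A and cGAS lists whole, the 3 largest changes past the threshold in each other list, the 5 nearest tested genes on each side of each locus where called, nearest or singled out, and the 5 most alike genes. The members and lists were chosen with earlier results of these data known. Some genes first listed are not reported here and were left out of the lists and their counts.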

Additional observations from a re-analysis of the deposited data

How the results depend on the processing

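The members' median of 2.41 became 3.19 and 1.98 with pseudocounts of 0.1 and 1, 2.13 with no filter, 2.80 with the 2 CPM filter, 3.48 with edgeR and 3.51 with DESeq2, and ran from 2.22 to 2.50 without each library in turn. With no filter Oas1g joined the fit, and the 2 CPM filter dropped Oas1b, Oas1c and Oas3. Over all genes, 3219 were called higher and 3592 lower. Scaling by library totals alone gave 4993 and 1930. The study's threshold on the limma fit gave 1024 (6.93%) and 576 (3.9%), which are not the study's own edgeR counts. Leaving out a library gave 2130 (without senescent replicate 2) to 3406 and 2416 to 3875. Of the pathway genes, 11 rose (9 to 16 over all alternatives) and 4 fell, with 0 at the study's threshold, 4 to 5 without each library. Of the neighbours, 3 rose; 7 did with library totals alone, 1 at the study's threshold, and 2 to 5 without each library (5 without control replicate 2). The 3 neighbours that fell became 0 at the study's threshold. Values near 0 changed sign: Pde12 to 0.0049 with library totals alone, Mb21d2 to -0.020 without senescent replicate 3 (-0.020 to 0.15 without each library), and 2210016L21Rik to -0.011, -0.027 and -0.026 without control replicate 2, senescent replicate 1 and senescent replicate 2 (-0.027 to 0.064 without each library). The cause of these changes was not tested. With the replicate block, the pairing by replicate number left the members' median at 2.41 and gave 3577 genes higher and 3947 lower; among the genes named it changed only the call of Rph3a. Coding length from the annotation replaced the planned RefSeq protein length, which was not run, and this and the ratio without a pseudocount were chosen after seeing the data; coding length gave senescent shares of 60.4%, 8.67% and 11.1% for Oasl2, Oasl1 and Oas1a. Depth limits Oas1g, Oas2 and Oas3 most, with 13 or fewer reads over the 3 control libraries.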
